A study of Saccharomyces cerevisiae with 22 samples.

Results

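The 10 protein-coding genes that border the ribosomal DNA (rDNA) array of budding yeast (Saccharomyces cerevisiae) on chromosome XII were followed across strains that differ in the length of that array. They were chosen by position and name: STM1 (YLR150W), PCD1 (YLR151C), YLR152C, ACS2 (YLR153C) and RNH203 (YLR154C) on the left of the array, and on its right the ASP3 copies ASP3-1 (YLR155C), ASP3-2 (YLR157C), ASP3-3 (YLR158C) and ASP3-4 (YLR160C) and then MAS1 (YLR163C). All 10 have a row among the 5823 genes of the polyA RNA files and among the 18222 features of the total RNA files. The strains are haploid, and the genotype label gives all of them MATa his3d1 lyp1d0 can1d::STE2pr-spHIS5. For 10 of them, with 72, 84, 118, 129, 147, 156, 197, 208, 224 and 237 rDNA repeats, RNA was sequenced both after polyA selection and as total RNA without it, in 1 library each. The strains with 104 and 166 repeats are represented by polyA libraries alone, and the labels call their polyA recovery low. The labels name cultures as the source and do not give their medium.

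The rDNA array is a tandem block of repeats that each carry the genes of the ribosomal RNAs, and its repeat number varies between strains. RNA polymerase II genes placed inside it are silenced by the histone deacetylase Sir2. The genes beside it have unrelated tasks. STM1 encodes a protein that binds ribosomes and preserves them in starved cells. PCD1 encodes a peroxisomal nudix pyrophosphatase that acts on coenzyme A, and YLR152C an uncharacterised membrane protein. ACS2 encodes the acetyl-CoA synthetase of the nucleus and cytosol, which supplies acetyl groups for histone acetylation in cells on glucose. RNH203 encodes a subunit of RNase H2, which removes RNA from RNA-DNA hybrids. ASP3 encodes the cell wall asparaginase, known to be induced by nitrogen starvation, and MAS1 a subunit of the protease that removes import signals from mitochondrial proteins.

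Each array length was 1 strain, so a trend with length rests on 10 strains. Differences between strains of any other origin enter its error, and those that run with array length enter the slope itself. Strain names fall into 4 series, and 3 of the 4 longest arrays (197, 208 and 224 repeats) belong to series CGY28. The polyA values are TPM, transcript abundances per length that add up to the same sum in every library and keep no depth. The total RNA values are reads divided by a size factor. Those libraries held 6495626 to 7934346 reads, of which 377986 to 465645 lay outside the rDNA, and the median tested feature had 26.1 reads. The labelled genotype was visible in polyA RNA: CAN1 and LYP1 were listed at 0 TPM in every library, HIS3, whose labelled deletion is partial, was present at 86.0 to 102.6 TPM, and the a-cell receptor gene STE2 stood at 374 to 466 TPM against 2.48 to 4.51 TPM for the alpha-cell receptor gene STE3. The polyA library of the strain with 208 repeats stood apart: its genes lay at a median of -0.16 on the log2 scale from the median of the libraries.

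In the reference genome (R64, the sacCer3 assembly) the annotated array spans bases 451575 to 468931 of chromosome XII and holds 2 copies of the rRNA precursor gene. RNH203 (447982 to 448314), ACS2 (445524 to 447575), YLR152C (442958 to 444688) and PCD1 (441715 to 442737) lie on the minus strand at 3.26, 3.999, 6.89 and 8.84 kb to its left. STM1 (440467 to 441288) lies on the plus strand at 10.3 kb. To the right, all on the minus strand, follow ASP3-1 (469317 to 470405) at 0.385 kb, ASP3-2 (472969 to 474057) at 4.04 kb, ASP3-3 (482549 to 483637) at 13.6 kb, ASP3-4 (486201 to 487289) at 17.3 kb and MAS1 (491866 to 493254) at 22.9 kb. These distances are those of the reference, and the array itself is far longer in the strains.

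The 4 ASP3 copies could not be told apart by their reads, because the reference sequence gives them the same 1089-base coding region with 0 differences in every pair. The identity goes on before the start codon for 1649 bases between ASP3-1, ASP3-3 and ASP3-4. ASP3-2 shares 362 bases with ASP3-1, then lacks 1 base, and then shares a further 1286. The stretch with that base is shown for each copy, 390 to 341 bases before the start codon on the minus strand, with the run of G in capitals (RefSeq R64, chrXII:470746-470795, chrXII:474398-474447, chrXII:483978-484027 and chrXII:487630-487679 in this order):
ASP3-1: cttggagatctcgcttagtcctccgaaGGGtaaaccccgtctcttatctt
ASP3-2: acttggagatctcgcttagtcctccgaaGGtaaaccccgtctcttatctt
ASP3-3: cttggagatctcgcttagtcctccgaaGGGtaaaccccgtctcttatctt
ASP3-4: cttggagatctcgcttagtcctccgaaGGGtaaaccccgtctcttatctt
The deposited values follow the sequence: within a library the 4 copies differed by at most 0.001 TPM in polyA RNA and by 0 in total RNA. They are therefore 1 measurement given 4 times, and ASP3 is described below per copy. Whether a read was split between the copies or counted at each cannot be told from the values.

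A window nearer the ASP3 start codon is shown because it carries a motif of nitrogen-regulated promoters, GATAAG, the core site of the GATA factors. The window of 300 to 101 bases before the start codon was searched on both strands, and the match, which lies on the other strand and reads CTTATC here, is in capitals (ASP3-1, chrXII:470506-470705, minus strand):
ASP3-1: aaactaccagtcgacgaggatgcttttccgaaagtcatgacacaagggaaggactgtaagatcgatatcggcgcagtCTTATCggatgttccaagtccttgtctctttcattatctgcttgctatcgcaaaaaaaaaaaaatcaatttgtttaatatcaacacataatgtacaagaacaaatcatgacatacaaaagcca
All 4 copies hold this same sequence in that window. The motif stands in 569 of 5996 such windows of the genome's genes (9.49%), and in that of no other flanking gene. The same letters, cttatc, also stand near the end of the stretch shown further above for every copy, which lies outside the window searched. This is a description of the letters and not of binding.

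Levels in polyA RNA spanned more than 2 orders of magnitude within the 10 kb on the left of the array and did not follow distance from it. In TPM, with ASP3 taken per copy, the order was STM1, ACS2, ASP3, RNH203, MAS1, YLR152C and PCD1. Summed over its 4 copies, ASP3 had 208 TPM in the strain with 197 repeats and 366 to 447 TPM in the other 9. ACS2 had 184 to 229 TPM, so the place of ASP3 between ACS2 and RNH203 holds per copy only. STM1 had 1821 ± 151 TPM (SD, n = 10), a level above that of 97.5% of the tested genes. Next to it, PCD1 had 5.22 ± 0.895 TPM (SD, n = 10). ACS2 had 203 ± 16.3 TPM, each ASP3 copy 93.3 ± 15.6 TPM, RNH203 81.4 ± 11.7 TPM, MAS1 29.8 ± 1.76 TPM and YLR152C 12.8 ± 1.15 TPM (SD, n = 10 for each). The ranges of neighbours in this order did not overlap, with the exception of ASP3 and RNH203: their ratio was 1.18 ± 0.319 (SD, n = 10), and ASP3 was the higher in 8 of 10 strains.

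**Figure D1:**
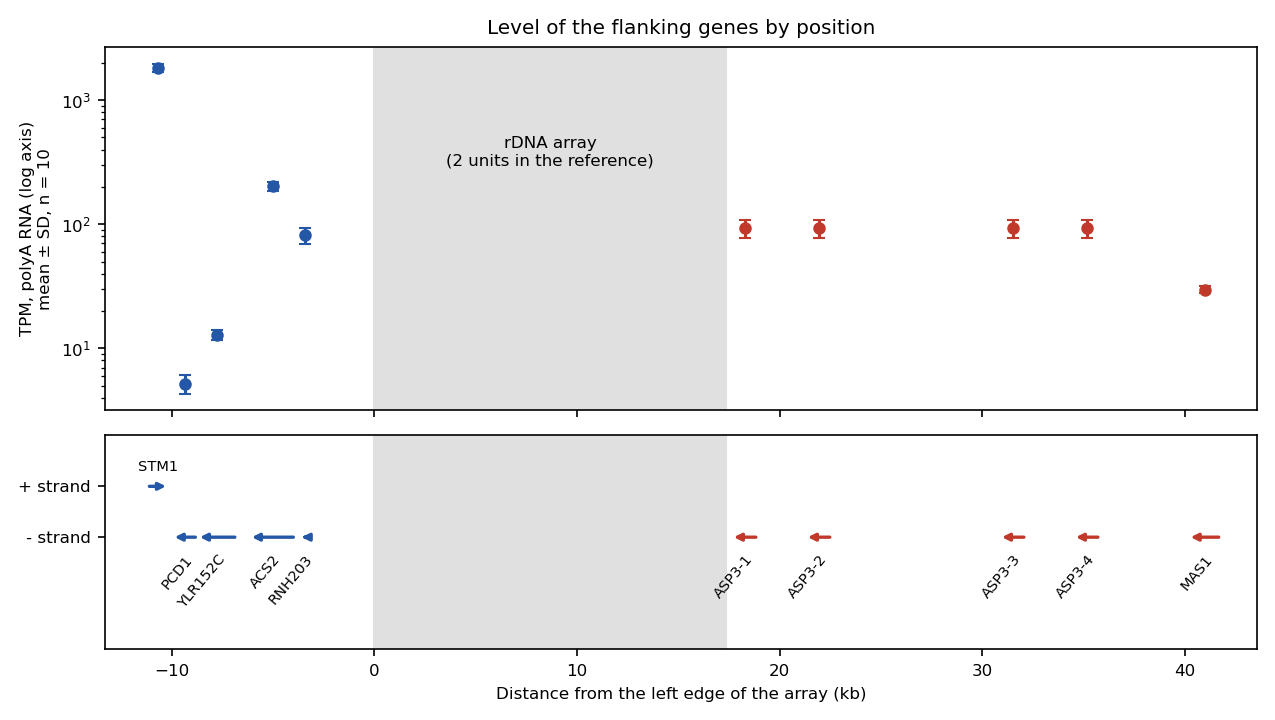
The upper panel gives the polyA level of each gene (TPM, log axis, mean and SD over 10 strains) against its distance in kb from the left edge of the array, and the lower panel gives gene positions and direction, with the array in grey. STM1 at 1821 TPM and PCD1 at 5.22 TPM are neighbours at the far left, and the 4 ASP3 copies share 1 value of 93.3 TPM.

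In total RNA, per kb of coding length, the order was STM1 (915 normalised reads per kb), ACS2 (138), RNH203 (27.5), ASP3 (25.7), MAS1 (13.2), YLR152C (4.24) and PCD1 (1.52). RNH203 and ASP3 exchanged places against the polyA order, but their ranges overlapped in both assays. Set against TPM, ACS2 stood 0.46 above the median gene on the log2 scale in total RNA, at percentile 74.9 of 3662 genes. Each ASP3 copy stood 0.85 below it on that scale (a difference of -0.85, percentile 12.2). STM1 was at 0.02 from the median gene, MAS1 at -0.16, RNH203 at -0.55, YLR152C at -0.58 and PCD1 at -0.76. Identical copies share reads, so the position of ASP3 depends on how both assays treated them. PCD1 rested on 16 reads in 10 libraries, with 0 reads in 2 of them, and was below the filter for the total RNA test.

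No flanking gene passed the test for a trend with array length in either assay. In polyA RNA 0 of the 10 members passed a Benjamini-Hochberg adjusted p of 0.05 for a linear trend (limma), and 0 of all 5542 genes tested did (0.0%). An unadjusted p under 0.05 was found for 312 genes (5.63%), among them 1 of the 10 members, ACS2. In both assays each ASP3 copy is counted as a member, though the copies are 1 measurement. In total RNA 0 of the 9 members tested passed, against 1 of 4019 features (0.0249%), and 188 features had an unadjusted p under 0.05 (4.68%), none of them a member. The slopes of the 2 assays differed past the adjusted threshold for 0 of 3662 genes (0.0%) and at an unadjusted p under 0.05 for 120 (3.28%), again with no member among them. Slopes below are differences on the log2(value + 1) scale per 100 repeats.

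ACS2 stood at 184.0 TPM at its lowest (118 repeats), 199.6 TPM at the median and 229.4 TPM at its highest (197 repeats). The strains with 197, 208, 224 and 237 repeats had 229.4, 204.8, 229.3 and 211.6 TPM, and the 6 strains with 156 or fewer repeats had 184.0 to 203.7 TPM. The long and the short arrays did not overlap, at 219 ± 12.5 TPM (SD, n = 4) against 192 ± 6.79 TPM (SD, n = 6), a ratio of 1.14. This division was chosen after the values were seen, and 47 of 5542 genes (0.848%) were likewise higher in every long-array strain, while 34 (0.613%) were lower. No other member was divided in this way in either assay, and in total RNA 26 of 4019 features (0.647%) were higher and 28 (0.697%) lower in every long-array strain. The slope was 0.15 ± 0.05 (SE), with a 95% confidence interval of 0.04 to 0.26, an unadjusted p of 0.0122 and a limma adjusted p of 0.853. Fitted with strain series as a term, it was 0.13, with an unadjusted limma p of 0.151, and 3 of the 4 long arrays are of 1 series. In total RNA the groups overlapped, at 252 to 330 against 262 to 297 normalised reads, and the lowest value was in the strain with 197 repeats, which was the highest in polyA RNA. The total RNA slope of ACS2 was 0.10 ± 0.08 (SE; -0.07 to 0.26), and 0.050 without the strain with 224 repeats. The difference between its slopes in the 2 assays was -0.05 (-0.23 to 0.13; limma adjusted p = 0.999).

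**Figure D2:**
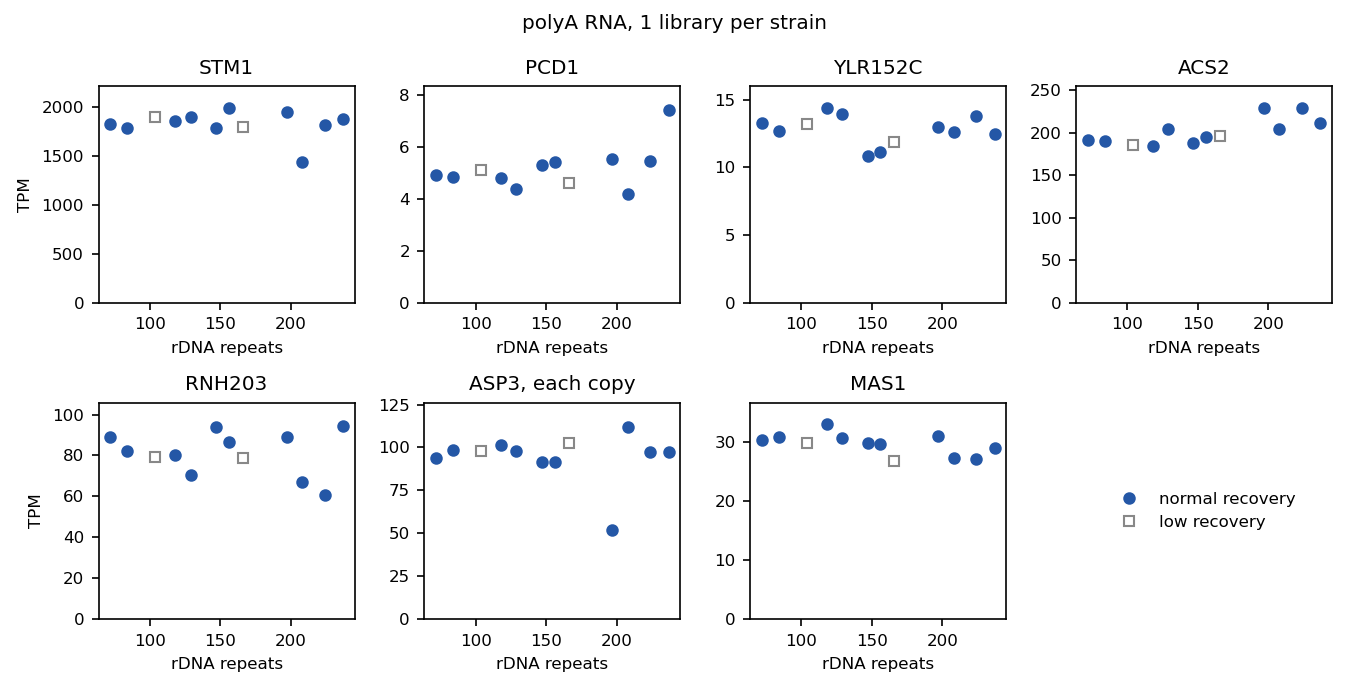
Each panel plots the TPM of 1 gene against the rDNA repeats of the strain, with 1 point per polyA library; filled circles are the 10 strains of normal recovery and open squares the 2 of low recovery. ASP3 falls to 52.1 TPM in the strain with 197 repeats, STM1 to 1433 TPM at 208 repeats, and ACS2 lies at 204.8 to 229.4 TPM in the 4 strains with the longest arrays.

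STM1 had its lowest polyA value in the strain with 208 repeats (1433 TPM), a median of 1843 TPM and its highest in that with 156 repeats (1984 TPM). The other 9 strains lay between 1784 and 1984 TPM. In the polyA library with 208 repeats the tested genes lay at a median of -0.16 on the log2 scale from the median of the libraries. STM1 lay at -0.38 there from the median of the other 9 strains. The slope was -0.04 ± 0.07 (SE; 95% confidence interval -0.18 to 0.10), and 0.03 without that library. In total RNA STM1 ranged from 655 (208 repeats) over a median of 749 to 873 normalised reads (147 repeats). It was high in the strains with 147 and 156 repeats (873 and 863) and low in those with 72 and 208 repeats (658 and 655). Its total RNA slope was 0.00 ± 0.08 (SE; -0.16 to 0.16).

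PCD1 ranged from 4.17 TPM (208 repeats) over 5.09 to 7.41 TPM (237 repeats), and the longest array stood apart from the rest, which reached 5.50 TPM. Its slope was 0.17 ± 0.10 (SE; -0.06 to 0.39), and 0.04 without that strain. Leaving out the 208-repeat strain gave 0.24 (limma adjusted p = 0.772), and a term for strain series gave 0.33 (limma adjusted p = 1.00). With no filter on low values its total RNA slope was -0.49 ± 0.44 (SE; -1.34 to 0.37; limma adjusted p = 0.943), opposite in sign to its polyA slope. YLR152C ranged from 10.8 TPM (147 repeats) over 12.8 to 14.4 TPM (118 repeats), with the low values at 147 and 156 repeats. Over all 10 strains its slope was -0.02 ± 0.08 (SE; -0.20 to 0.15). In total RNA it had 2 to 14 reads a library. Its slope there of -0.53 ± 0.40 (SE; -1.35 to 0.29) became 0.15 with a term for strain series.

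RNH203 had its lowest polyA value of 60.7 TPM in the strain with 224 repeats, a median of 84.4 TPM and its highest of 94.6 TPM in that with 237 repeats. The strains with 208 and 129 repeats were also low (67.0 and 70.6 TPM), so that low and high values stood side by side among the long arrays. The slope was -0.09 ± 0.11 (SE; -0.32 to 0.14) in polyA RNA and 0.27 ± 0.31 (SE; -0.37 to 0.91) in total RNA, where the gene had 3 to 13 reads a library. The difference between these slopes was 0.36 (-0.28 to 1.00; limma adjusted p = 0.999).

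MAS1 was the steadiest of the flanking genes in polyA RNA. It ranged from 27.1 TPM (224 repeats) over 30.0 to 33.0 TPM (118 repeats), a coefficient of variation of 5.91%, and its SD on the log2 scale was larger than that of 11.0% of the tested genes. The slope was -0.09 ± 0.06 (SE; -0.22 to 0.03). In total RNA the strain with 84 repeats had 33.9 normalised reads, and the other 9 had 13.5 to 19.8. That value rests on 38 reads, with a 95% exact Poisson interval of 26.9 to 52.2, which covers counting error only. In polyA RNA the same strain had 30.8 TPM, inside the range of the others. The total RNA slope was -0.04 ± 0.21 (SE; -0.48 to 0.39), and 0.25 without that strain.

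**Figure D3:**
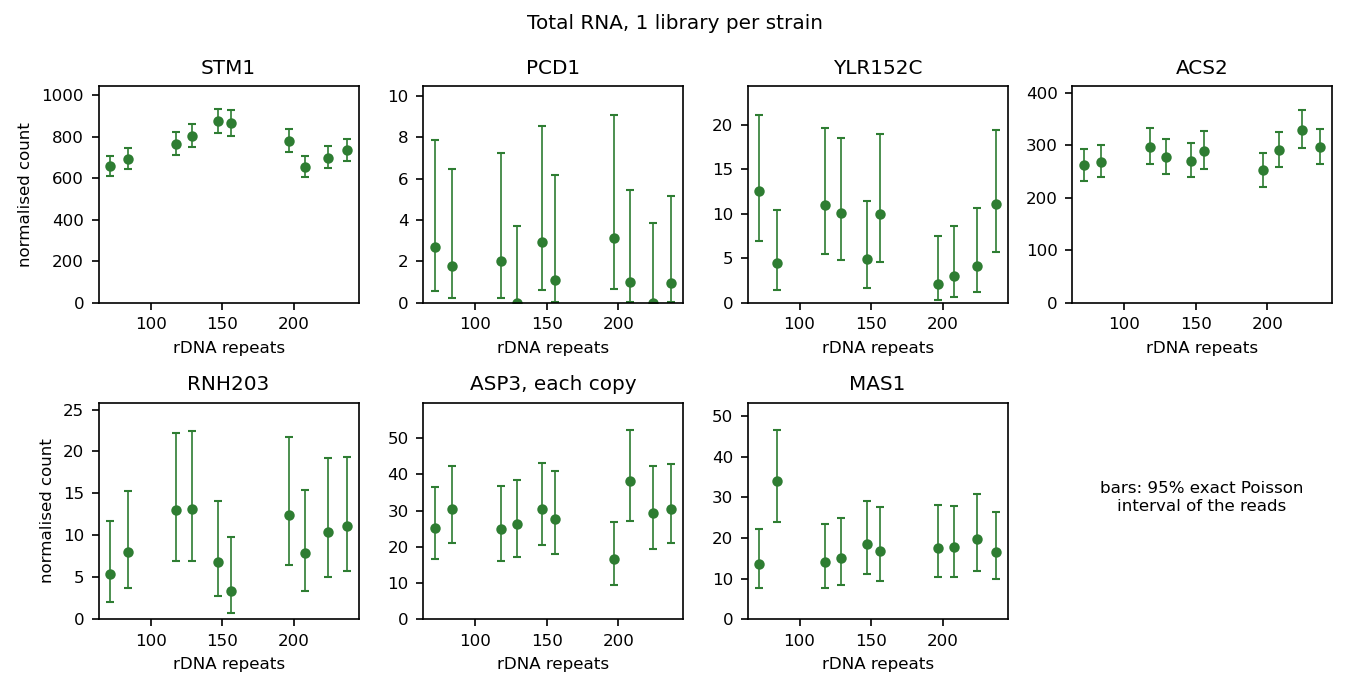
Each panel plots the normalised count of 1 gene in total RNA against the rDNA repeats of the strain, with 1 library per strain and bars for the 95% exact Poisson interval of its reads. The bars are narrow for STM1 and ACS2 and wide for PCD1, YLR152C and RNH203; MAS1 stands at 33.9 in the strain with 84 repeats and ASP3 at 16.6 in that with 197.

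ASP3 varied most among the flanking genes that had over 10 TPM, and the spread came from 1 strain. Each copy stood at 52.1 TPM in the strain with 197 repeats. The 6 shorter arrays, from 72 to 156 repeats in order, had 94.1, 98.2, 101.4, 98.0, 91.6 and 91.6 TPM. The strains with 208, 224 and 237 repeats had 111.8, 97.2 and 97.2 TPM. The low strain was at 0.535 times the median of the other 9, which among themselves were at 97.9 ± 6.11 TPM (SD, n = 9). Summed over the copies the strain had 208 TPM, and the others 366 to 447 TPM.

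The same strain was lowest in total RNA too. There ASP3 had 16.6 normalised reads per copy, and the other 9 strains had 25 to 38.2 with a median of 29.2, a ratio of 0.568. As listed per copy, this is 16 reads (95% exact Poisson interval 9.15 to 26.0) against 25 to 39 reads in the others. If reads were split between the copies, more reads stand behind each value and the interval would be narrower. The libraries are separate but come from the same strain, and the labels do not say whether the culture was the same. The strain was singled out after its values were seen, so this is a description with no test.

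Low ASP3 was not shared by the strains of like array length or of the same series. The other CGY28 strains had 111.8 TPM (208 repeats), 97.2 TPM (224 repeats) and 102.5 TPM (166 repeats, low recovery). Among the other flanking genes of that polyA library, STM1, PCD1, YLR152C, RNH203 and MAS1 stood at 1.02 to 1.12 times and ACS2 at 1.17 times the median of the other strains. In total RNA of that strain YLR152C and ACS2 were the lowest of the 10 as well, at 0.207 and 0.871 times that median, where YLR152C rests on 2 reads (95% exact Poisson interval 0.242 to 7.22). STM1, MAS1 and RNH203 were at 1.06, 1.06 and 1.55 times in total RNA. In the polyA library of that strain, the genes of chromosome XII other than the members were at a median of 0.04 on the log2 scale, as were all genes (0.04). Of 4299 genes that averaged 10 TPM or more, 8 (0.186%) were as low in that library as ASP3: its 4 copies, HSP12 (0.404 times), YGL007C-A (0.471), MMO1 (0.505) and HXT7 (0.533). HSP12 encodes a small membrane stress protein and HXT7 a high-affinity glucose transporter.

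Between ASP3-4 and MAS1 another frame moved the other way in the same library. RRT15 (YLR162W-A) was at 469 TPM in polyA RNA there and at 10.6 to 99.96 TPM in the other 9 strains, with a median of 16.3. In total RNA it had 0 reads there, but the median of the other 9 strains was 0 too and their highest value 0.900 normalised reads. YLR162W beside it was at 4.53 TPM against 0 to 2.34 TPM. The short frames YLR156W, YLR159W and YLR161W, which lie beside ASP3 copies and have the same values, were at 3.73 TPM against 3.61 to 9.27 TPM. YLR156C-A, YLR157C-C and YLR159C-A, which share 1 value as well, were at 20.2 TPM, inside a range of 0 to 58.6 TPM in the others. RRT15 and these frames were looked at after the ASP3 values were known. In bulk RNA a lower ASP3 level in all cells and a loss in a share of the cells cannot be told apart. How many ASP3 copies the strain carries was not tested.

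**Figure D4:**
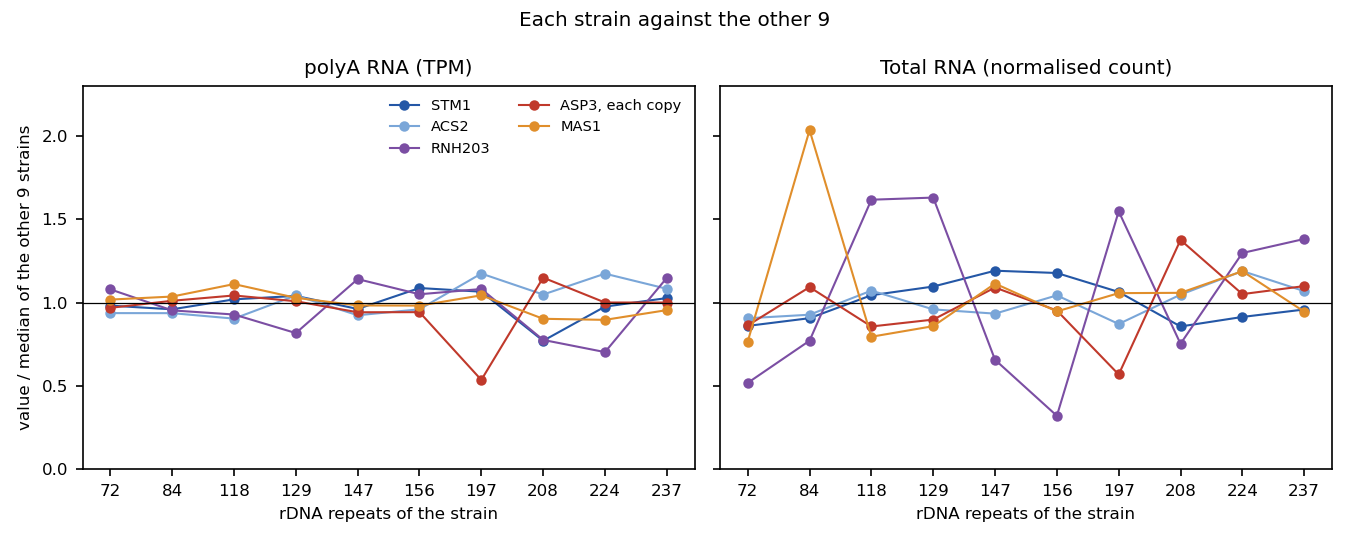
Each line follows 1 gene over the 10 strains, ordered by rDNA repeats, as its value divided by the median of the other 9 strains, in polyA RNA on the left and total RNA on the right. ASP3 drops to 0.535 and 0.568 in the strain with 197 repeats in the 2 assays, while RNH203 and MAS1 scatter more in total RNA, where they rest on few reads.

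With that strain in the fit the ASP3 slope was -0.08 ± 0.16 (SE; 95% confidence interval -0.43 to 0.27; limma adjusted p = 0.927) in polyA RNA, and it was 0.04 without it. In total RNA the slope was 0.06 ± 0.18 (SE; -0.30 to 0.42). On the log2 scale the SD of ASP3 over the polyA libraries was larger than that of 93.9% of the tested genes. RNH203 was at percentile 84.0, PCD1 at 77.0, STM1 at 42.6, YLR152C at 38.2 and ACS2 at 31.0.

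The libraries of low polyA recovery, with 104 and 166 repeats, had values inside the range of the other 10 for every flanking gene, with the exception of MAS1 at 26.8 TPM in the strain with 166 repeats. ASP3 was at 98.0 and 102.5 TPM there, ACS2 at 184.9 and 196.2 TPM and STM1 at 1898 and 1790 TPM.

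**Figure D5:**
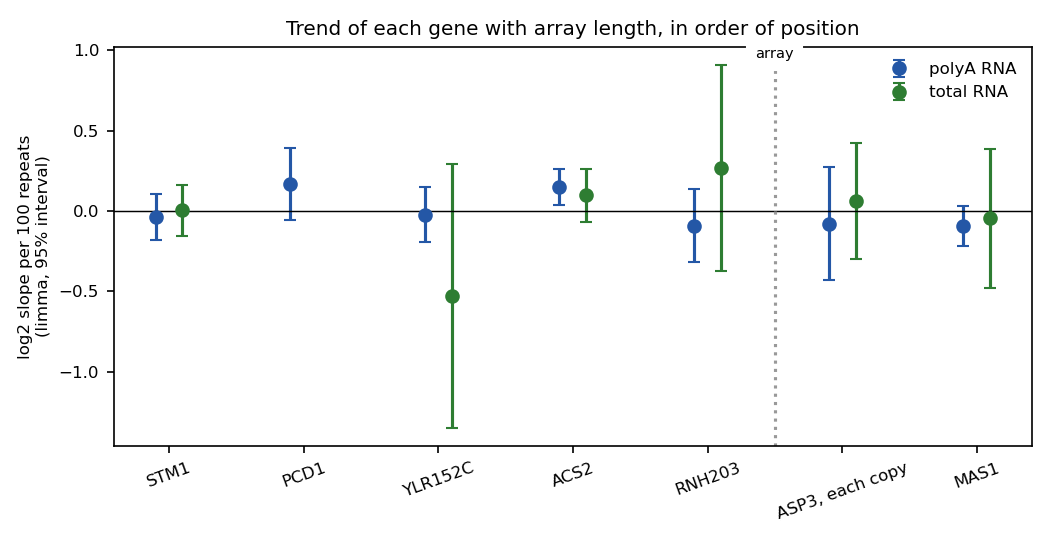
Slopes of each gene on array length (log2 units per 100 repeats) in order of position, with 95% confidence intervals from limma, for polyA RNA in blue and total RNA in green; PCD1 was below the filter of the total RNA fit. The interval of ACS2 in polyA RNA, 0.04 to 0.26, is the only one that leaves out 0, at an adjusted p of 0.853.

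The surroundings of the flanking genes gave no trend past the adjusted threshold. Over all tested polyA genes the median slope was -0.02, and over the 468 other genes of chromosome XII it was -0.02. Of the 9 genes measured further left, 0 were called and the median slope was -0.01, with -0.24 ± 0.12 (SE) for the proline oxidase gene PUT1 and 0.09 ± 0.06 for the spermine synthase gene SPE4. Of the 10 further right, 0 were called and the median was -0.06, with -0.27 ± 0.11 for PUS5, a mitochondrial pseudouridine synthase, and -0.18 ± 0.10 for the isocitrate dehydrogenase gene IDP2. Of 18 small frames between RNH203 and MAS1, 7 were tested and 0 called, with a median slope of 0.47. All 7 slopes were positive, against 40.6% of all tested genes, but the 7 rows hold only 3 measurements. YLR156W, YLR159W and YLR161W have the same values and shared the lowest p (0.40 ± 0.18, unadjusted p = 0.0398, limma adjusted p = 0.868). YLR156C-A, YLR157C-C and YLR159C-A also have the same values as each other (0.47 ± 0.98), and RRT15 had 0.68 ± 0.99. In total RNA 0 of those 18 frames were tested. Some of them were among the rDNA rows left out beforehand, whatever their reads, and the rest did not pass the expression filter.

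Genes related to the flanking genes by function, family or regulation were counted in the same way, and 0 were called in any list in either assay. The other RNase H genes were RNH202, a further subunit of RNase H2 (-0.12 ± 0.07 SE), RNH201, its catalytic subunit (-0.04 ± 0.07), and RNH1, for a median of -0.04. On the route from acetaldehyde to acetyl-CoA, 6 of 6 genes were tested with a median of -0.05. The aldehyde dehydrogenase genes ALD5 (-0.12 ± 0.05) and ALD2 (0.18 ± 0.08) had the lowest p, and the other acetyl-CoA synthetase gene, ACS1, stood at 3.02 TPM. Of 6 protease genes for mitochondrial import signals the median was -0.05. MAS2, the partner subunit of MAS1, stood at 38.2 ± 1.52 TPM (SD, n = 10) with a slope of -0.03 ± 0.06, and the lowest p belonged to IMP1 (-0.15 ± 0.07) and OCT1 (-0.10 ± 0.08).

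For ASP3 the cytosolic asparaginase gene ASP1 was at 187.5 TPM with a slope of 0.13 ± 0.05 (SE; unadjusted p = 0.0215, limma adjusted p = 0.868), and the asparagine synthetase gene ASN2 had 0.06 ± 0.06. Of 14 genes under nitrogen catabolite repression 12 were tested, with a median slope of -0.03. The lowest p among them belonged to DCG1, a gene of the allantoin cluster (-0.28 ± 0.12), and to the ammonium permease gene MEP2 (0.18 ± 0.08). Of 5 ribosome-bound factors set beside STM1, 4 were tested with a median of 0.06, led by the elongation factor 2 genes EFT2 (0.10 ± 0.06) and EFT1 (0.06 ± 0.06), which encode the same protein. The 5 nudix genes beside PCD1 had a median of -0.04, with YSA1 at -0.11 ± 0.07 and YJR142W at -0.12 ± 0.10. The YLR152C relatives YNL095C and ECM3 both had 0.04 ± 0.08.

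As a description over the 10 polyA libraries, the gene whose log2 values followed each flanking gene most closely was HOT1 for STM1 (Pearson's r = 0.98), DFP4 for PCD1 (0.87), SAT4 for YLR152C (0.86), LDB17 for ACS2 (0.93), SSS1 for RNH203 (0.96), TVP15 for ASP3 (0.91) and EGD1 for MAS1 (0.97). The most opposite were HTB2 for STM1 (-0.96), SOL3 for PCD1 (-0.88), YBR090C for YLR152C (-0.85), SAW1 for ACS2 (-0.85), ATP1 for RNH203 (-0.93), PAC1 for ASP3 (-0.91) and BAT1 for MAS1 (-0.87). These are the extremes of about 4294 genes searched over libraries that share their scaling. For STM1, PCD1 and ASP3, 1 strain stood far from the rest (208, 237 and 197 repeats). How much r rests on that strain was not tested. Among the flanking genes that were searched, none was the closest to another one. The ASP3 copies were left out of the search and PCD1 averaged under 10 TPM, so these could not be named.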

How the data were processed

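PolyA RNA values are TPM as deposited by the authors. Total RNA values are a normalised signal as deposited by the authors; in each library 100% came within 0.001 of whole multiples of 1 step, so reads were recovered by division. In the libraries with 118 and 129 repeats the step was at or near 1, where such steps cannot be told from rounding, and recovery there is less sure. The submitters' processing notes name Salmon 0.8.1, bcl2fastq, DESeq2 and sacCer3; how each was set is not given in the sources used here. Per the labels' protocols, acid phenol extraction was followed by a strand-specific library kit.

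Slopes on repeat number were fitted with limma 3.58.1 (R 4.3.3, trend and robust moderation) on log2(value + 1), which understates changes of low genes, over 5542 polyA genes averaging 1 TPM or more and 4019 total RNA features passing the expression filter of edgeR 4.0.16. The 96 spike-in rows (all listed at 0) and 39 rDNA rows stayed out. P-values are two-sided and Benjamini-Hochberg adjusted over all features, and measure the spread between strains. The difference between assays was an interaction over 3662 genes, fitted without a term for strain. Both libraries of a strain are paired by strain (deviations correlated at 0.14 to 0.52, over 0.1 in 10 of 10). That pairing entered only an alternative fit with strain as a block, so the intervals and p-values given for the difference do not use it. DESeq2 1.42.0 was an alternative. Fits were checked on simulated data. Per list, the 2 genes with the lowest polyA p are named, and for each member the genes with the highest and the lowest r among genes averaging 10 TPM or more. Levels of low recovery libraries entered fits only as an alternative. Coordinates and sequences come from RefSeq R64. Members and lists were chosen with earlier results of these data known.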

Additional observations from a re-analysis of the deposited data

Results flagged for a closer look

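In 14 groups of 10 values (7 flanking genes in each assay, the ASP3 copies counted once), 4 had a strain far from the rest by Dixon's criterion. For normally distributed values chance gives about 1 in 20. These groups share strains and libraries and some rest on few reads, so the 4 are a description with no test of an excess. STM1 in polyA RNA was at 1433 TPM in the strain with 208 repeats, with the nearest other strain at 1784 TPM. PCD1 in polyA RNA was at 7.41 TPM in the strain with 237 repeats, with the nearest at 5.50 TPM. ASP3 in polyA RNA was at 52.1 TPM per copy in the strain with 197 repeats, with the nearest at 91.6 TPM, and in total RNA that strain was lowest too. MAS1 in total RNA was at 33.9 normalised reads in the strain with 84 repeats, with the nearest at 19.8.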

How the results depend on the processing

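No flanking gene passed the adjusted threshold under any alternative tried: the lowest adjusted p was 0.448 in polyA RNA, 0.915 in total RNA and 0.998 for the difference between assays. The direction held in 112 of 119 polyA values, 91 of 102 in total RNA and 12 of 12 for the difference; with strain as a replicate block 0 genes were called, as without it. Slopes turned with strain series as a covariate for STM1 (0.053) and ASP3 (0.076) in polyA RNA and for YLR152C (0.15), RNH203 (-0.079) and MAS1 (0.20) in total RNA. With TMM factors YLR152C in polyA RNA came to 7.2e-05 and STM1 in total RNA to -0.0012; edgeR gave STM1 -0.0028 and DESeq2 -0.0012. Leaving out 1 strain at a time gave in polyA RNA -0.069 to 0.027 (STM1), -0.058 to 0.00022 (YLR152C), -0.21 to 0.010 (RNH203), -0.15 to 0.041 (ASP3) and 0.044 to 0.24 (PCD1), and in total RNA -0.076 to 0.043 (STM1), -0.027 to 0.18 (ASP3), -0.22 to 0.25 (MAS1), 0.050 to 0.13 (ACS2), 0.12 to 0.37 (RNH203) and -0.96 to -0.34 (YLR152C). The cause was not tested.

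Over all polyA genes 0 were called, and 0 to 1 when 1 strain was left out (YGL258W-A without that with 197 repeats, YIR020C without that with 237). In total RNA 1 feature was called (YDR154C), 4 with no filter on low values, 3 with edgeR, 2 with DESeq2, 0 with strain series as a covariate and 0 to 2 when 1 strain was left out, with 0 without that with 72 repeats and 2 without those with 84, 147 or 237 repeats. Summed over its 4 copies ASP3 stood at 373 TPM in place of 93.3. Total RNA depth limits PCD1, YLR152C, RNH203 and MAS1 most. PolyA depth is unknown.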
